A study of Mus musculus with 32 samples.

Results

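The TNF superfamily was followed in the mRNA of cells isolated from mouse liver and of colorectal tumors. Its members were taken as the array probes whose gene name in the scanner output was *Tnf*, *Lta*, *Ltb*, *Ltbr*, *Fas*, *Fasl*, *Cd40*, *Cd40lg*, *Cd27* or *Cd70*, or began with *Tnfsf* or *Tnfrsf* followed by a number. This gave 51 of 55681 probes, for 40 of 34821 gene names on the array: 16 ligands, 5 receptors with a death domain, 4 decoy or soluble receptors and 15 other receptors. Male Balb/c mice aged 6 to 8 weeks received murine C26 colon carcinoma cells, or PBS as control, in the spleen, and the liver cells were isolated 14 days later by the methods text. The labels name no transgene or deletion in either group of mice. There were 8 groups of 4 samples, namely control and tumor microenvironment (TME) sinusoidal endothelial cells (EC, ET), Ito cells (IC, IT) and Kupffer cells (KC, KT), tumor liver metastasis cells (TM) and colorectal cancer primary cells (TP). Endothelial and Ito fractions were taken from density gradients and Kupffer cells by adherence, so each is an enriched fraction that was in culture for at most 24 h, and the tumors stem from 1 cell line. The study names 4 biological replicates per group, and the labels do not say whether animals were pooled.

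TNF superfamily ligands are mostly trimeric membrane proteins, some of them shed, that cluster their receptors on a neighbouring cell. Receptors with a death domain can start cell death through caspase-8, most of the others bind TRAF adaptors and activate NF-kappaB, and decoy receptors bind ligand without signalling. In liver, macrophages are a known source of TNF, and costimulatory pairs such as CD40 with its ligand, OX40 with OX40L (*Tnfsf4*) and GITR with GITRL (*Tnfsf18*) act between antigen-presenting cells and T cells.

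Levels are log2 of the deposited quantile-normalized intensity, and a difference of 1 is a doubling. A difference counted as called when its adjusted p was under 0.05 (limma, 1 fit to all 8 groups, with p-values adjusted by Benjamini-Hochberg over the 55681 probes). A signal well above background stands clear of the local background in the scanner software's own test. For 30 genes there was 1 probe, and for the other 10 the probe with the highest variance stood for the gene, with the other probe named where it disagreed. Each array carried 2 samples. Control and TM samples had the dye Cy3 and TME and TP samples Cy5 on all 16 arrays, so dye and condition cannot be told apart in a comparison of TME with control or of TP with TM. Comparisons of Ito with endothelial cells, of TM with KC and of TP with KT were within 1 dye and 1 slide.

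Some libraries stood apart. On the array numbered 4 in the Ito and in the Kupffer set (arrays 4), TME minus control ran opposite to the other arrays of the same cells, with correlations of -0.66 and -0.598 across 17105 probes, against 0.188 to 0.777 on the other liver arrays. For *Tnfsf4*, IC replicate 4 was at 6.85, beside 4.10 to 6.83 in IT replicates 1 to 3, and IT replicate 4 was at 8.32, beside 8.32 to 8.39 in IC replicates 1 to 3. Whether samples or dyes were exchanged on these arrays was not tested, and an exchange would turn the sign of TME minus control there. The labels were kept, and values without arrays 4 are given for the main results that use them. Tumor arrays 1 and 4 also correlated below 0 with the other tumor arrays (-0.196 and -0.0652). The share of spots well above background was 38.4 to 57.1% per sample. The study reports high purity of every liver cell fraction by immunochemistry for a marker protein of each cell type. Here the labelled cell types were checked against marker genes at the RNA level. In IC against EC, 0 of 10 Ito cell markers were called higher and 2 lower, while 5 of 5 hepatocyte and 4 of 8 macrophage markers were higher (5 and 1 without arrays 4). *Lrat*, a defining Ito cell gene, was not well above background in any ET or IT sample. It was the only 1 of the 10 Ito cell markers of which this held in ET and in IT. Summed hepatocyte marker intensity was 30814 to 35161 in EC and 132411 to 428367 in IC, and summed macrophage marker intensity was 37465 to 57729 and 85676 to 420550. IT replicate 2 stood apart from the other IT samples, with summed epithelial marker intensity of 153300 against 4670 to 5201 and summed macrophage marker intensity of 22316 against 95870 to 349387. ET replicate 2 also stood apart, with hepatocyte sums of 37139 against 14083 to 15208 and epithelial sums of 12037 against 2199 to 2324. In KC replicate 3 the B cell sum was 1378 against 210 to 411 and the T and NK cell sum 1937 against 523 to 720. The macrophage sum of KC replicate 3 was 74185 against 162207 to 509743. Of 5 epithelial genes, *Epcam* and *Cdh1* were not well above background in any tumor sample, nor was *Krt19* in any TM sample. *Krt8* and *Krt18* were well above background in at least 1 sample of each tumor group. In TM against KC and in TP against KT, 1 of the 5 was called higher and 1 lower (0 higher in TM without arrays 4). The part of these markers in the results below was not tested, and in such bulk fractions fewer cells of a type and less RNA per cell cannot be told apart.

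Promoters are shown for 4 ligands with lower mean levels in both tumor groups than in any liver group, and for *Tnfrsf17*, which went the other way. Each is the 250 bases before the annotated start in RefSeq (GRCm38.p6), 5′ to 3′ in the orientation of the gene. They were at chr17:35202008-35202257 (minus strand) for *Tnf*, chr17:35194257-35194506 (plus) for *Ltb*, chr3:27316827-27317076 (plus) for *Tnfsf10*, chr1:161494407-161494656 (plus) for *Tnfsf18* and chr16:11313559-11313808 (plus) for *Tnfrsf17*. Capitals mark matches to an NF-kappaB motif or to GAGGAAG, a core bound by the myeloid factor PU.1, on either strand.
Tnf: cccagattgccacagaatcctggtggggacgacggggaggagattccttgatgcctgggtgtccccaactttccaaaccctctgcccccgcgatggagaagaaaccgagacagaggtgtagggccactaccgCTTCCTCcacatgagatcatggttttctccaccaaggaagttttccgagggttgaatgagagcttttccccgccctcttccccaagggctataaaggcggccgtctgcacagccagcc
Ltb: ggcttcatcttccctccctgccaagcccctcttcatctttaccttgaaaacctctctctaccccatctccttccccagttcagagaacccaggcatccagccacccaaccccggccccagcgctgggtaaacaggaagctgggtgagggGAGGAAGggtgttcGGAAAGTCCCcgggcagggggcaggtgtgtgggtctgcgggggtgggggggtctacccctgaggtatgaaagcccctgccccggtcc
Tnfsf10: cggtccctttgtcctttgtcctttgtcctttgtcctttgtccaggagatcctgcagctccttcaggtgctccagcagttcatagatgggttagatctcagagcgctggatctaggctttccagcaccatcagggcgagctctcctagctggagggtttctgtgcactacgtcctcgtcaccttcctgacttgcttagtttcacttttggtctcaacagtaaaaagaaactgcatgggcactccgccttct
Tnfsf18: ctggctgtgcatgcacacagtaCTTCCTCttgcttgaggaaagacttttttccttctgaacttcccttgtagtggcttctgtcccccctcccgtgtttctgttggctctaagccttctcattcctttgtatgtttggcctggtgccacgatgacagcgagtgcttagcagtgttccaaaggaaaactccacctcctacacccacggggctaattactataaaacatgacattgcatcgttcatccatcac
Tnfrsf17: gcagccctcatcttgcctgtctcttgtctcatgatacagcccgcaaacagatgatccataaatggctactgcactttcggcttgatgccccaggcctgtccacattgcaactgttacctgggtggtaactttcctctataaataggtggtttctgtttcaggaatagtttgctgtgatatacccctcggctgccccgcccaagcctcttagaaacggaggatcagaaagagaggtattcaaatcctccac
In *Tnf*, GAGGAAG was matched on the opposite strand at positions -118 to -112 from the start. *Ltb* held both motifs without overlap, the NF-kappaB match at -87 to -78 and GAGGAAG at -101 to -95, and *Tnfsf18* held GAGGAAG on the opposite strand at -228 to -222. The promoters of *Tnfsf10* and *Tnfrsf17* held neither, nor TGANTCA, the AP-1 motif. Promoters were found for 30 of the 40 genes. GAGGAAG was in 4 of these 30 (13.3%), against 10.4% of 27025 promoters of the same length, the NF-kappaB motif in 2 (6.67% against 3.75%) and TGANTCA in 3 (10% against 6.87%). A match is a string of letters and no evidence of binding.

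Of the 40 genes, 15 were well above background in all 32 samples and 25 in all 24 liver samples, and 43 of the 51 probes passed a filter on dim probes. *Cd40lg*, *Tnfsf11* (RANKL) and *Tnfrsf8* (CD30) were not well above background in any sample. In the tumors 16 genes were well above background in all 8 samples and 15 in none, and 9 of those 15 were ligands.

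**Figure D1:**
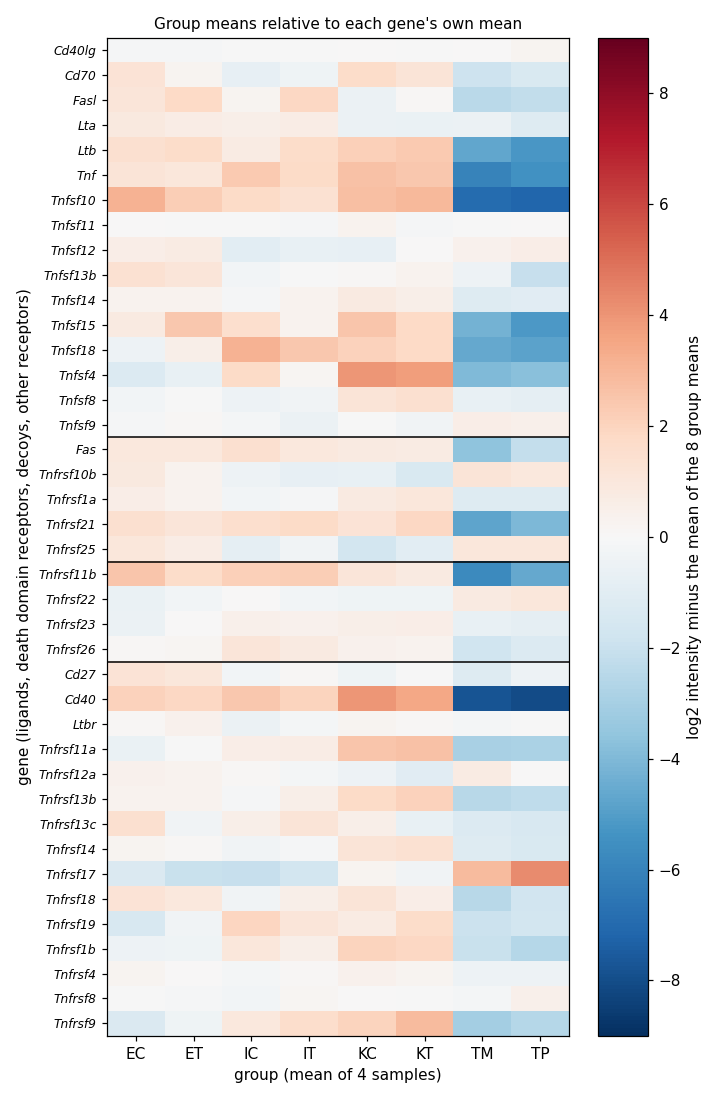
Group means of the 40 genes, 1 row per gene and 1 column per group of 4 samples, coloured by log2 intensity minus the mean of the gene's 8 group means. *Cd40*, *Tnfsf10*, *Tnf*, *Ltb*, *Tnfsf4*, *Tnfsf15* and *Tnfsf18* have lower means in TM and TP than in any liver group, and *Tnfrsf17* higher ones.

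Whether the metastatic environment changed the superfamily was asked by TME against control in each cell type. With all samples, in a fit that did not pair the samples of an array, no member probe was called in endothelial, Ito or Kupffer cells. TP against TM gave none either. Over all probes 1.14, 0.289, 0.436 and 3.01% were called, so 0 of 51 does not set the members apart. At an unadjusted p under 0.05, limma gave 8, 7, 4 and 10 member probes (beside 7.71, 9.88, 7.37 and 16.4% of all probes), and the methods' t-test after Benjamini-Hochberg adjustment gave 2, 0, 0 and 0. The median member difference was -0.02 for endothelial cells, 0.10 for Ito cells and -0.03 for Kupffer cells, beside 0.01, 0.00 and -0.00 over all probes. In differences of the change between cell types, 0 member probes were called as well, beside 0.111, 0.0808 and 0.00359% of all probes, with 10, 4 and 3 at an unadjusted p under 0.05 (beside 4.45, 3.88 and 4.13%) and 0 in each by the methods' t-test.

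Without arrays 4 of Ito and Kupffer cells, an exclusion chosen after the data were seen, 7 members were called in Ito cells, 5 in Kupffer cells and 2 in endothelial cells (13.7, 9.80 and 3.92% of the member probes, beside 7.66, 3.85 and 1.64% of all probes). TP against TM still gave 0 (beside 2.80%), as did the difference of change between Kupffer and endothelial cells (beside 0.395%). The exclusion took out arrays that ran against the rest, so these calls describe the remaining arrays and are no independent support. No endothelial array was left out. The 2 endothelial calls thus rest on the same EC and ET samples as before, with the shared spread estimated without arrays 4.

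In Ito cells the ligands moved both ways on arrays 1 to 3. *Fasl*, the death ligand of cytotoxic lymphocytes, was at 4.83, 4.11, 3.76 and 7.38 in IC and 7.54, 6.74, 7.31 and 4.87 in IT, in the order of replicates 1 to 4. Replicate 4 of each group lay within the range of the other group, and 3 of 4 IC samples were well above background. *Fasl* was 2.96 ± 0.42 (SE) higher in IT without arrays 4 (adjusted p = 0.000116), and 1.60 ± 0.60 with them (adjusted p = 0.377). *Ltb*, which with lymphotoxin alpha forms the ligand of *Ltbr*, was at 7.86, 7.70, 7.80 and 9.5 in IC and 9.40, 9.84, 9.14 and 8.13 in IT. Its difference was 1.68 ± 0.42 without arrays 4 (adjusted p = 0.0163) and 0.92 ± 0.44 with them (adjusted p = 0.494). *Tnfrsf18* (GITR) differed by 1.57 ± 0.38 without them (adjusted p = 0.012) and 0.87 ± 0.39 with them (adjusted p = 0.458).

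*Tnfsf4*, *Tnfsf15*, *Tnfsf18* and *Tnfsf9* ran the other way. *Tnfsf4* was at 8.35, 8.39, 8.32 and 6.85 in IC and 6.83, 4.10, 6.46 and 8.32 in IT, where 3 of 4 samples were well above background, a difference of -2.56 ± 0.46 without arrays 4 (adjusted p = 0.00126) and -1.56 ± 0.55 with them (adjusted p = 0.346). *Tnfsf15* (TL1A), the ligand of *Tnfrsf25*, differed by -2.02 ± 0.56 without (adjusted p = 0.0295) and -1.18 ± 0.57 with them (adjusted p = 0.505). *Tnfsf18* gave -1.14 ± 0.35 (adjusted p = 0.048) and -0.68 ± 0.39 (adjusted p = 0.575), and *Tnfsf9* (4-1BBL) -0.70 ± 0.17 (adjusted p = 0.0126) and -0.33 ± 0.24 (adjusted p = 0.691).

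Markers of other cells moved on the same arrays. The summed intensity of 6 neutrophil markers was 854, 800, 720 and 14477 in IC and 13465, 17599, 8310 and 953 in IT. That of 7 T and NK cell markers was 635, 676, 637 and 1773 in IC and 1665, 3403, 1507 and 758 in IT. In both lists replicate 4 of IC was the highest of its group and replicate 4 of IT the lowest, as for *Fasl* and *Ltb*. Without arrays 4, 5 of 6 neutrophil and 3 of 7 T and NK cell markers were called higher in IT, and with them none of either. The summed intensity of 8 sinusoidal endothelial markers was 38979, 39468, 38016 and 21449 in IC and 19798, 12829, 23087 and 41574 in IT, with 2 of 8 called lower in IT without arrays 4 and none with them. Here too the replicates 4 ran against the rest, as for *Tnfsf4* and *Tnfsf15*. Summed macrophage marker intensity was 85676, 106509, 85687 and 420550 in IC and 349387, 22316, 346683 and 95870 in IT. Summed hepatocyte marker intensity was 132411, 162115, 141400 and 428367 in IC and 358753, 151670, 350458 and 153302 in IT. No marker of either list was called in IT against IC, with or without arrays 4. The median difference of the 10 Ito cell markers in IT against IC was 0.85, with 0 called. Without arrays 4 it was 1.38, with 1 called higher and 1 lower. The part of these cells in the differences of the ligands and of *Tnfrsf18*, in either direction, was not tested.

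In Kupffer cells, *Cd40*, the receptor for CD40L on antigen-presenting cells, was at 14.90, 15.04, 14.31 and 13.36 in KC and 13.56, 13.60, 13.54 and 14.83 in KT. It was 1.18 ± 0.27 lower in KT without arrays 4 (log2 difference -1.18, adjusted p = 0.0153), and with them the difference was -0.52 ± 0.33 (adjusted p = 0.79). *Cd70*, the ligand of *Cd27*, gave -1.02 ± 0.29 (adjusted p = 0.0494) and -0.51 ± 0.30 (adjusted p = 0.76). *Tnfsf9* gave -0.76 ± 0.17 (adjusted p = 0.013) and -0.30 ± 0.24 (adjusted p = 0.875), and *Tnfsf12* (TWEAK) 1.03 ± 0.27 (adjusted p = 0.038) and 0.81 ± 0.25 (adjusted p = 0.275). The other *Tnfsf12* probe was not called. Neutrophil marker sums were 2594, 2535, 3119 and 13004 in KC and 10901, 11441, 10635 and 2816 in KT, with 2 of 6 markers called higher in KT without arrays 4 and none with them. Sinusoidal endothelial marker sums were 30692, 30981, 22994 and 20841 in KC and 20277, 20017, 20386 and 31215 in KT (1 of 8 called lower without arrays 4, none with them). The part of these cells in the differences of *Cd40*, *Cd70*, *Tnfsf9* and *Tnfsf12* was not tested.

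*Tnfrsf13c*, the BAFF receptor of B cells, was called lower in endothelial and in Kupffer cells without arrays 4. Its levels were 5.52, 5.12, 5.04 and 5.33 in EC and 3.74, 5.03, 2.35 and 3.1 in ET, where 1 of 4 samples was well above background. The groups did not overlap (exact permutation p = 0.0286, two-sided, the smallest that 4 against 4 samples allow). The adjusted p was 0.0248 without arrays 4 and 0.173 with them. EC and ET came close, with 5.04 and 5.03 as the nearest values. In KC it was at 4.79, 4.73, 5.52 and 2.28, and in KT, at 2.73, 2.83, 2.88 and 4.14, it was not well above background in any sample. In KC 3 of 4 samples were well above background, and KC replicate 4 lay below every KT sample. Over all arrays the difference was not called (adjusted p = 0.64), and without arrays 4 the adjusted p was 0.00809. The summed intensity of 5 B cell markers was 564, 532, 540 and 571 in EC and 200, 522, 109 and 161 in ET, and the sample with the highest *Tnfrsf13c* in ET also had the highest sum. The B cell sum was 411, 392, 1378 and 210 in KC and 208, 222, 219 and 403 in KT. Neutrophil marker sums were 574 to 1016 in EC and 3369 to 7658 in ET. Of these 6 markers 3 were called higher in ET without arrays 4 and 0 with them. Sinusoidal endothelial marker sums were 53422 to 58976 in EC and 27893 to 44262 in ET, with 0 of 8 called. The part of these cells in the endothelial and Kupffer differences was not tested. The other *Tnfrsf13c* probe, dim throughout, was not called. *Cd70* in endothelial cells, also without overlap (exact permutation p = 0.0286), differed by -0.97 ± 0.25 (adjusted p = 0.0493) without and -0.97 ± 0.30 (adjusted p = 0.148) with arrays 4, and 3 of 4 ET samples were well above background.

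**Figure D2:**
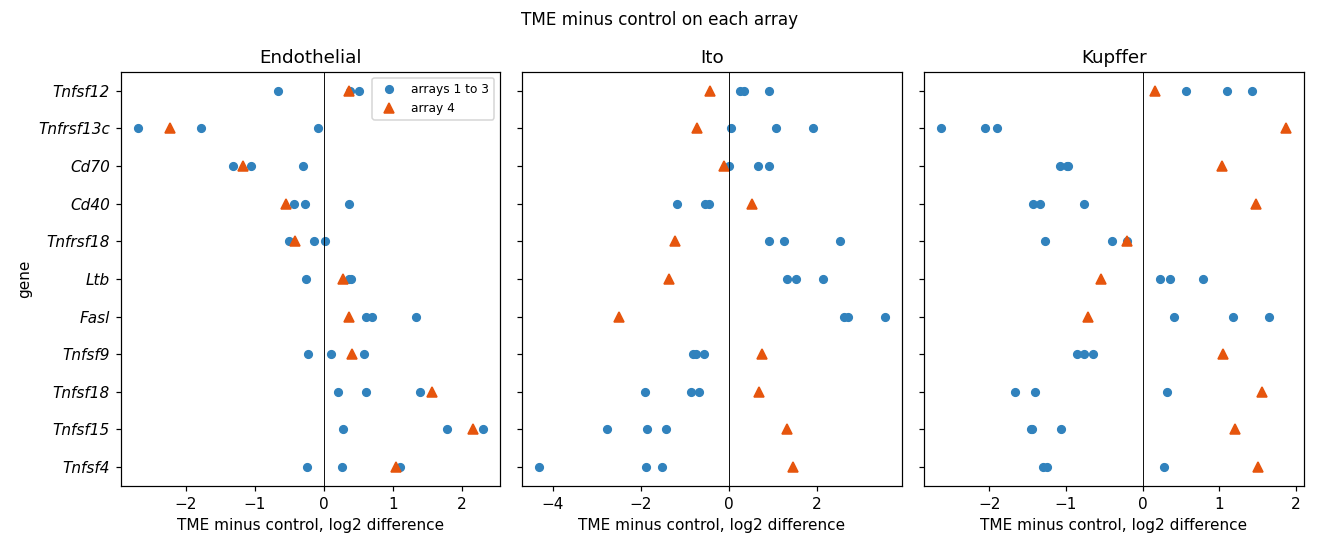
TME minus control (log2 difference, x axis) on each array for the 11 genes called in any cell type without arrays 4, 1 panel per cell type. Circles are arrays 1 to 3 and triangles array 4. In Ito cells the triangle of *Fasl* is at -2.50 and its circles at 2.63 to 3.55, and in Kupffer cells the triangle of *Cd40* is at 1.47 and its circles at -1.43 to -0.77, whereas the endothelial triangles lie among or near the circles.

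The change in Ito cells differed from that in endothelial cells for 7 members without arrays 4 (beside 1.67% of all probes) and for 0 with them. The largest difference was that of *Tnfsf15*, -3.65 ± 0.74 (adjusted p = 0.0105), and with all arrays it was -2.81 ± 0.81 (adjusted p = 0.318). On endothelial arrays 1 to 4, ET minus EC for *Tnfsf15* was 2.31, 0.28, 1.78 and 2.16, all above 0. On the Ito arrays IT minus IC was -1.43, -2.77, -1.85 and 1.32. *Tnfsf4*, *Tnfsf18* and *Tnfsf9* were also lower and *Fasl*, *Cd70* and *Tnfrsf13c* higher in this comparison. *Tnfrsf13c* was called between Kupffer and Ito cells as well (adjusted p = 0.0402, and 0.995 with all arrays), and this rests on KT samples below background. It was the single call of 51 there (1.96%, beside 0.183% of all probes).

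Between control Ito and control endothelial cells 19 of 51 member probes were called (37.3%, against 9.89% of all probes), 11 higher in IC (4.17% of all probes were) and 8 lower (5.72%). By gene, 9 were higher, 6 lower and 25 not called. The median member difference was -0.32, beside 0.01 over all probes.

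The ligands *Tnfsf18* and *Tnfsf4* led the rises. *Tnfsf18* was at 6.38, 6.73, 6.84 and 6.09 in EC and 10.24, 10.13, 10.22 and 9.56 in IC. *Tnfsf4* was at 4.67, 5.29, 5.22 and 4.78 in EC and 8.35, 8.39, 8.32 and 6.85 in IC. Neither pair of groups overlapped. The differences were 3.53 ± 0.39 (11.6-fold, adjusted p = 8.47e-07) for *Tnfsf18* and 2.99 ± 0.55 (7.95-fold, adjusted p = 0.000506) for *Tnfsf4*, and 3.69 ± 0.33 and 3.37 ± 0.43 without arrays 4. The pair are neighbours on chromosome 1, with 0 listed genes between them in RefSeq, and their probes lay at chr1:163435352-163435411 and chr1:163348095-163348153 (mm9, plus strand).

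Among receptors, *Tnfrsf1b*, the TNF receptor without a death domain, was 1.44 higher in IC (2.71-fold, adjusted p = 1.57e-05; 1.54 without arrays 4), with 9.23 to 9.36 in EC and 10.45 to 10.97 in IC. *Tnfrsf1a*, which has the death domain, went the other way, with both probes lower by 0.82 on the log2 scale (log2 difference -0.82 for each, adjusted p = 0.00454 and 0.000608). The decoy receptors *Tnfrsf22*, *Tnfrsf23* and *Tnfrsf26*, side by side on chromosome 7, were all higher in IC on all 5 probes, by 0.57 to 0.99. On 1 of its 2 probes *Tnfrsf19* (TROY) was at 5.55 to 7.12 in IC and not well above background in any EC sample. That probe was at least 1.78-fold higher in IC (adjusted p = 0.000448). The other *Tnfrsf19* probe, at means of 3.80 in EC and 3.67 in IC, was not called. On it 2 of 4 EC samples and 1 of 4 IC samples were well above background. *Tnfrsf11a* (RANK), 1.15 higher (adjusted p = 0.0318), lost its call without arrays 4 (adjusted p = 0.0838).

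Lower in IC were *Cd70*, *Tnfrsf25*, *Tnfsf13b*, *Tnfsf12* and *Tnfrsf18*. *Cd70* was at 5.20 to 5.47 in EC and not well above background in any IC sample, and was at least 1.36-fold higher in EC (adjusted p = 4.16e-05). *Tnfrsf25* (DR3), a death domain receptor, was at 6.23, 5.83, 5.81 and 5.63 in EC and 4.18, 4.11, 3.43 and 4.58 in IC, where 2 of 4 samples were well above background (adjusted p = 0.00209, and 0.00099 without arrays 4). *Tnfsf13b* (BAFF), the survival factor of B cells, was at 7.31, 6.99, 6.80 and 7.31 in EC and 5.71, 5.49, 4.99 and 5.62 in IC. Its difference was -1.65 ± 0.50 (adjusted p = 0.0317), and its call was lost without arrays 4 (-1.71 ± 0.58, adjusted p = 0.0575). *Tnfsf12* was lower by 1.57 on 1 of its 2 probes (log2 difference -1.57, adjusted p = 0.00011, and -1.72 without arrays 4). The other *Tnfsf12* probe differed by -0.39 ± 0.34 and was not called (adjusted p = 0.621).

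For *Tnfrsf9* (4-1BB), the receptor of *Tnfsf9*, the 2 probes disagreed. At chr4:150319582-150319641 (mm9, plus strand) the levels were 12.93, 12.94, 12.76 and 12.91 in EC and 15.23, 14.90, 14.56 and 15.86 in IC, a difference of 2.25 (adjusted p = 2.71e-05). At chr4:150319101-150319160 they were 9.51, 9.01, 8.93 and 9.40 in EC and 7.0, 6.69, 6.70 and 7.87 in IC, a difference of -2.15 (adjusted p = 0.000162). Both probes separated the groups without overlap, in opposite directions, so no direction is given for the gene.

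IT against ET shares no sample with IC against EC but lies on the same arrays, so the comparisons are not independent. In TME cells it gave 6 called member probes (11.8%, against 8.26% of all probes), 3 higher (3.48% of all probes were) and 3 lower (4.78%). Of these 6, 5 were called in the same direction in control cells (83.3% of the 6 and 26.3% of the 19). The share of such common calls over all probes was not computed. Of the 19 control calls, 18 had the same sign in TME cells, and so did 38 of all 51 probes, with a correlation of 0.72 across the probes, which are not independent replicates. *Tnfsf18* was at 7.76, 6.93, 7.45 and 7.66 in ET and 9.58, 8.25, 9.36 and 10.26 in IT, a difference of 1.91 ± 0.39 (adjusted p = 0.00192) and, without arrays 4, of 1.61 ± 0.33 (adjusted p = 0.00235). *Tnfrsf1b* was 0.92 ± 0.20 higher (adjusted p = 0.0027, and 0.81 ± 0.20 with adjusted p = 0.0133 without arrays 4). *Tnfsf12* differed by -1.44 ± 0.25 on 1 probe (adjusted p = 0.000365, and -1.36 without arrays 4), and by 0.35 ± 0.34 on the other, which was not called (adjusted p = 0.656). Both *Tnfrsf9* probes kept their opposite directions (1.96 and -1.80, and 1.82 and -1.60 without arrays 4). *Tnfsf15* was called in TME cells and not in control cells, with 10.80, 9.0, 10.71 and 10.72 in ET and 8.29, 7.14, 8.10 and 9.27 in IT, a difference of -2.11 ± 0.57 (adjusted p = 0.02), and the groups overlapped (exact permutation p = 0.0571). Without arrays 4 its difference was -2.47 ± 0.53 (adjusted p = 0.00364). Without IT replicate 2, which was the lowest IT sample for *Tnfsf18*, *Tnfsf4* and *Tnfsf15*, 12 member probes were called (23.5%, against 11.7% of all probes).

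**Figure D3:**
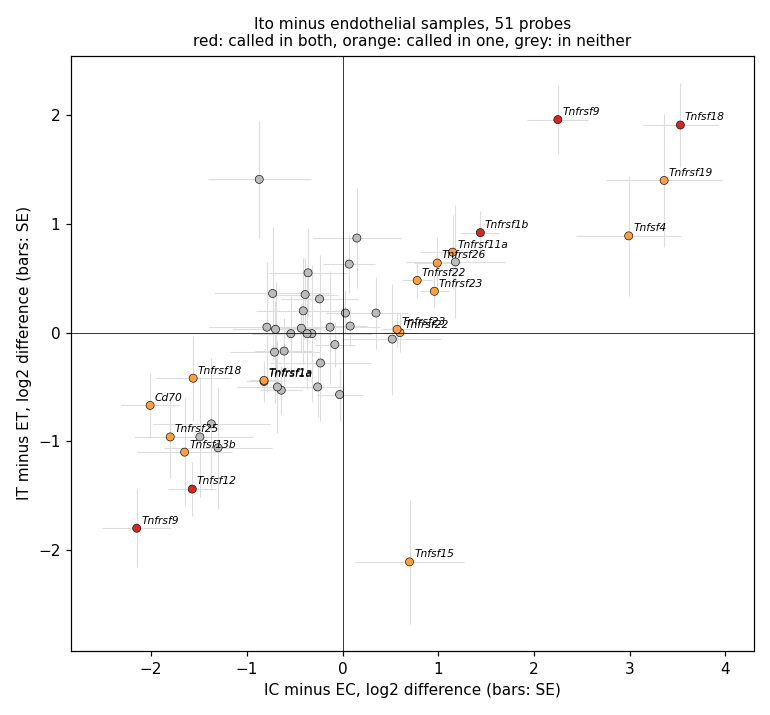
Log2 difference of Ito minus endothelial samples for the 51 member probes, in control cells (x axis) and TME cells (y axis), with standard errors as bars. Red probes were called in both, orange in 1 and grey in neither. The 2 *Tnfrsf9* probes lie in opposite corners, *Tnfsf18* is at 3.53 and 1.91, and *Tnfsf15* falls below the rest at -2.11 in TME cells.

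Control Kupffer cells, resident liver macrophages, were compared with the mean of EC and IC. They lay on another slide, so cell type and slide cannot be told apart here. Called were 20 of 51 member probes (39.2%, against 20.1% of all probes), 17 higher (9.23% of all probes were) and 3 lower (10.8%). The median member difference was 0.34, beside -0.02 over all probes. Of 8 macrophage markers 4 were called higher in KC and 0 lower, and 2 and 0 without arrays 4 (18.3% of all probes were called then). Summed macrophage marker intensity was 164047, 162207, 74185 and 509743 in KC. This overlapped IC at 85676 to 420550, and KC replicate 3 lay below every IC sample. By gene, 4 of 16 ligands were higher and 0 lower, and of the 15 other receptors 7 were higher and 1 lower.

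*Tnfsf4* was highest in Kupffer cells, with 10.92, 10.95, 9.33 and 9.57 in KC, above all EC and IC samples, and a difference of 3.71 ± 0.47 (13.1-fold, adjusted p = 2.44e-06), or 3.73 ± 0.39 without arrays 4. *Tnfrsf11a*, the receptor of RANKL on the macrophage and osteoclast lineage, was at 12.40, 12.31, 13.25 and 13.36 in KC, 9.63 to 9.86 in EC and 10.53 to 11.80 in IC. Its difference was 2.50 ± 0.30 (5.68-fold, adjusted p = 9.15e-07), or 2.48 ± 0.28 without arrays 4. *Cd40* was 1.78 higher (adjusted p = 4.78e-05) and *Tnfrsf1b* 1.74 higher (adjusted p = 4.43e-08), with KC at 11.59 to 11.91, and without arrays 4 the differences were 2.06 and 1.75. Both *Tnfrsf9* probes were higher in KC than the mean of EC and IC (2.23 and 1.38), unlike in the comparison of Ito with endothelial cells. On the one that stands for the gene, KC was at 16.31, 16.41, 15.56 and 16.68. On the other, EC was at 8.93 to 9.51 and IC at 6.69 to 7.87, and no group mean was above 9.61. KC thus lay close to EC on that probe. *Tnfrsf11b* (osteoprotegerin), the soluble decoy for RANKL, differed by -1.22 ± 0.36 (adjusted p = 0.0137), with 14.04 to 14.46 in EC, 13.66 to 14.07 in IC and 12.03 to 13.41 in KC. That call was lost without arrays 4 (-0.93 ± 0.39, adjusted p = 0.115), as was that of *Tnfrsf12a* (Fn14), the receptor of TWEAK (-0.70 ± 0.25, adjusted p = 0.0434, and -0.64 ± 0.26, adjusted p = 0.104).

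**Figure D4:**
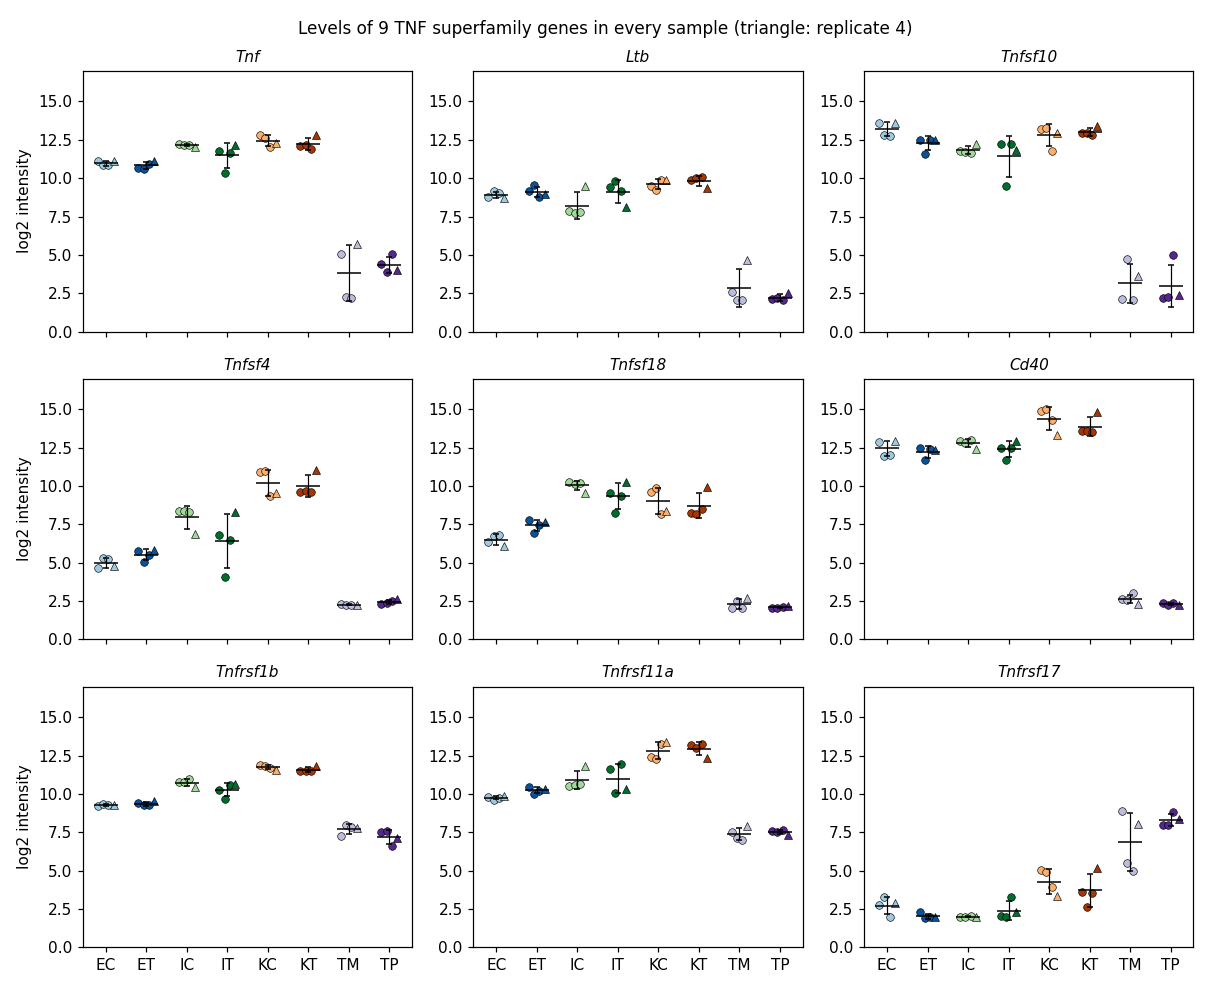
Log2 intensity of 9 genes in every sample, with 1 panel per gene, the 8 groups on the x axis, circles for replicates 1 to 3, triangles for replicate 4, and bars for mean and SD. *Tnfsf4* rises from EC at 4.67 to 5.29 to KC at 9.33 to 10.95, *Tnfrsf17* is higher in the tumors, and the other 8 genes are lower there.

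The tumors were set against Kupffer cells of the same dye and slide, TM against KC and TP against KT. Member calls numbered 38 of 51 probes in TM against KC (74.5%, against 39.4% of all probes) and 36 in TP against KT (70.6%, against 43.6%). In TM 8 were higher (23.3% of all probes were) and 30 lower (16.2%), and in TP 6 were higher (25.7%) and 30 lower (17.8%). The median member differences were -1.22 and -1.38, beside 0.08 and 0.10 over all probes. Of the markers, 8 of 8 macrophage and 5 of 5 hepatocyte genes were lower in both comparisons, with summed macrophage marker intensity of 202 to 973 in TM and 74185 to 509743 in KC. The 2 comparisons share no sample but lie on the same arrays, so they are not independent. In both, 35 member probes were called in the same direction (92.1 and 97.2% of their calls). The share of such common calls over all probes was not computed.

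Most ligands were lower in the tumors, 10 of 16 in TM and 11 in TP, with 2 and 1 higher. *Tnf* was at 12.83, 12.65, 12 and 12.29 in KC and 5.07, 2.26, 2.20 and 5.69 in TM, where 2 of 4 samples were well above background. The groups did not overlap (adjusted p = 1.87e-13). In TP no sample was well above background for *Tnf*, and KT was at least 53.3-fold higher (adjusted p = 9.1e-13). *Tnfsf10* (TRAIL), the ligand of *Tnfrsf10b*, was at 13.19, 13.30, 11.76 and 12.95 in KC and 12.80 to 13.37 in KT, and not well above background in any tumor sample. It was at least 91.5-fold higher in KC than in TM and at least 92.3-fold higher in KT than in TP (adjusted p = 4.14e-13 and 1.59e-13). By the same bound *Tnfsf4* was at least 14.7-fold and 11.3-fold higher, and *Tnfsf18* at least 7.98-fold and 6.03-fold. *Ltb*, which on chromosome 17 has 1 listed gene between it and *Tnf* in RefSeq, was at 9.5, 9.25, 9.85 and 9.88 in KC and 2.56, 2.07, 2.04 and 4.67 in TM, where 1 of 4 samples was well above background (adjusted p = 5.99e-13). It was at least 11.3-fold higher in KT than in TP. *Tnfsf12* was higher in TM by 1.11 on 1 probe (adjusted p = 0.000619), and the other was not called (adjusted p = 0.486). The ligand *Tnfsf9* was higher in TM by 0.66 (adjusted p = 0.0319) and in TP by 0.78 (adjusted p = 0.00936), and its call in TM was lost without arrays 4 (adjusted p = 0.0526).

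Among receptors *Cd40* showed the widest gap. It was at 14.90, 15.04, 14.31 and 13.36 in KC and 13.56, 13.60, 13.54 and 14.83 in KT, and not well above background in any TM or TP sample, and so was at least 212-fold higher in KC than in TM and at least 141-fold higher in KT than in TP (adjusted p = 3.51e-20 and 4.3e-20). Of the death domain receptors, *Tnfrsf1a*, *Fas* and *Tnfrsf21* (DR6) were lower and *Tnfrsf10b* and *Tnfrsf25* higher in both comparisons. *Fas* was at 12.04, 12.14, 12.28 and 11.81 in KC and 8.53, 6.46, 6.15 and 9.52 in TM, a difference of -4.40 (adjusted p = 4.89e-08). *Tnfrsf10b*, the receptor of TRAIL, was at 8.78, 8.81, 8.15 and 7.58 in KC and 9.97, 10.85, 10.37 and 9.58 in TM, a difference of 1.86 ± 0.56 (3.63-fold, adjusted p = 0.00789), or 1.61 ± 0.45 without arrays 4 (adjusted p = 0.00568). In TP it was 2.29 ± 0.56 higher than in KT (adjusted p = 0.00122), and 2.72 ± 0.45 without arrays 4 (adjusted p = 2.37e-05). *Tnfrsf25* was not well above background in any KC or KT sample and was at least 1.5-fold higher in TM and 1.46-fold in TP (adjusted p = 1.05e-06 and 6.83e-05).

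*Tnfrsf17* (BCMA), known as a receptor of plasma cells, was at 8.90, 5.52, 4.98 and 8.03 in TM and 7.97, 8.01, 8.82 and 8.40 in TP. Its level in KC was 5.03, 4.92, 3.91 and 3.32, where 2 samples were well above background, and in KT 3.59, 2.61, 3.52 and 5.16, where 1 sample was. TM replicates 2 and 3 lay close to KC replicates 1 and 2, and the groups overlapped (exact permutation p = 0.0571), while TP and KT did not (p = 0.0286, exact). Both were called (adjusted p = 0.00103 for TM against KC and 3.83e-07 for TP against KT, and 0.00645 and 5.05e-07 without arrays 4), and no size is given, since most Kupffer samples did not measure the probe above background.

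*Tnfrsf12a*, the receptor of TWEAK, was 1.20 higher in TM (adjusted p = 0.00103) and 1.05 higher in TP (adjusted p = 0.00324). *Tnfrsf11a* was lower by 5.43 in both (log2 differences -5.43 and -5.43), and *Tnfrsf11b* by 6.80 and 5.39 (-6.80 and -5.39). *Ltbr* was not called in either, with 12.41 to 13.27 in KC, 11.95 to 12.65 in TM and 12.13 to 12.71 in TP. For the decoy *Tnfrsf22* the probes disagreed. The probe at chr7:150826673-150826732 (mm9, minus strand) was higher in TM and TP, by 1.23 and 1.42, and the one at chr7:150823394-150823453 was lower (-0.94 and -0.53), all 4 called. The probes of *Tnfrsf19* disagreed in the same way in TM only, and its upper call was lost without arrays 4 (adjusted p = 0.0744).

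**Figure D5:**
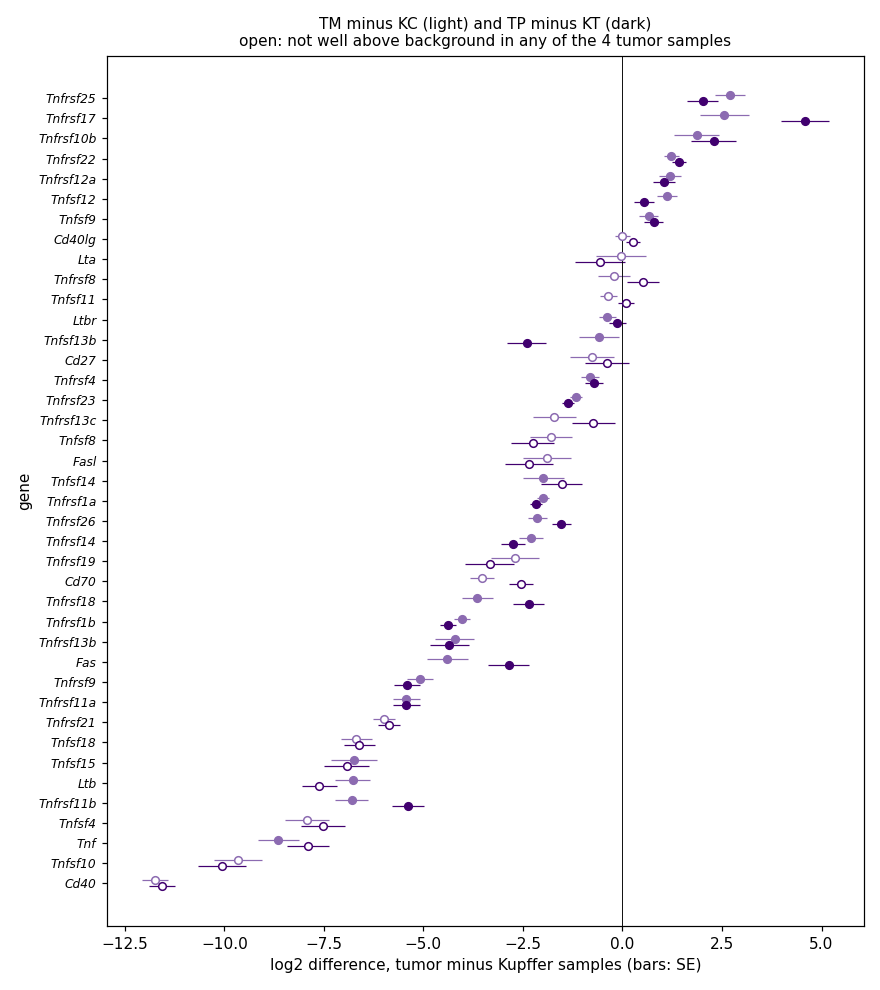
Log2 difference with standard error for the 40 genes, TM minus KC in light and TP minus KT in dark purple, ordered by the former. Open symbols mark genes not well above background in any of the 4 tumor samples, whose plotted difference is not a measured fold, nor is that of *Tnfrsf25*, which no Kupffer sample measured above background. *Cd40*, *Tnfsf10*, *Tnf* and *Tnfsf4* lie far to the left, and 6 genes were called to the right in both, among them *Tnfrsf17*, which 2 of 4 KC and 1 of 4 KT samples measured above background. The differences of *Tnf*, *Ltb* and *Tnfsf15* in TM also rest on samples below background.

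Under a stricter call, an adjusted p under 0.001 with at least 4-fold, 6 member probes passed in IC against EC, 0 in IT against ET, 3 in KC against the other controls, 20 in TM against KC and 24 in TP against KT, beside 1.24, 0.871, 1.45, 14.3 and 15.9% of all probes. Without arrays 4 and at the usual threshold the same comparisons gave 20, 8, 22, 36 and 35, beside 11.7, 8.63, 18.3, 38.2 and 41.7%.

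TP against TM gave no member call (above). *Tnfrsf17* was at a mean of 6.86 ± 1.90 (SD, n = 4) in TM and 8.30 ± 0.40 in TP, and *Fas* at 7.66 ± 1.63 and 9.13 ± 0.91, so the spread among TM samples was wide in both genes.

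Genes that act below the receptors were counted on lists of 25 adaptors and enzymes and 11 NF-kappaB genes. In TME against control none of either list was called in any cell type with all arrays, beside 1.14, 0.289 and 0.436% of all probes. Without arrays 4, 3 adaptors and enzymes and 4 NF-kappaB genes were lower in IT and none higher, beside 7.66% of all probes called in either direction. In IC against EC 2 NF-kappaB genes were higher and 0 lower (9.89% of all probes were called), and 6 and 0 without arrays 4 (11.7%). In TM against KC 10 of 11 NF-kappaB genes were lower and 0 higher, with a list median of -2.19 beside 0.08 over all probes, and TP against KT gave 10 and 0 (16.2 and 17.8% of all probes were lower in these comparisons). Of the adaptors and enzymes 15 were lower and 3 higher in TM, beside 16.2 and 23.3% of all probes. *Traf1*, itself an NF-kappaB target, was at -6.54 and *Tnfaip3*, which restrains NF-kappaB, at -5.08. *Traf4* (3.30), *Cyld* (2.77) and *Rbck1* (0.73) were the 3 higher. In KC against the other controls 4 NF-kappaB genes were higher and 1 lower, and 7 adaptors and enzymes were higher and 4 lower, with *Traf1* at 2.55 (20.1% of all probes were called).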

How the data were processed

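The mRNA of 32 samples was measured on 16 two-colour Agilent arrays. The authors extracted intensities with Feature Extraction 10.7.3.1 and deposited, beside the scanner output, a table of quantile-normalized intensity values (linear, 1 per probe for each sample). The log2 of this table was used here, and flags for signal well above background came from the scanner output, where a probe with several spots counted as above background when at least 50% of them did. Positions of probes follow the mm9 build named in the files. No depth applies to arrays, and the 4 samples per group limit the precision. Differences were tested with limma 3.58.1 (R 4.3.3, lmFit and eBayes), with Benjamini-Hochberg adjustment over all 55681 probes, and for a single probe with an exact two-sided permutation test. p-values measure the spread between these samples.

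If none of a group's 4 arrays had a probe above background, only a lower bound of its fold is given. The bound divides the brighter group's mean by a floor for the dim group, which on each array is the lowest signal of any probe that was above background, or the dim probe's own signal where that was higher. It was computed after normexp (offset 50), loess and Aquantile, and is open to dye bias.

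Named were, in each comparison of groups, up to 3 rises and 3 falls among called members that all 4 samples of the higher group measured above background, and each member called in a comparison of TME with control or of these changes between cell types, with or without arrays 4. Further members were chosen after their values were seen. The members and lists were chosen with earlier results of these data known. On simulated data with 200 of 55681 probes changed by 2 on the log2 scale, 72.5 to 86% were recovered with 3 to 12 false calls. The simulated samples had independent normal errors, with 1 spread per probe for all groups, and smaller changes were not simulated. Samples sharing an array here were not independent, so these figures do not give the error rates for the present data. The deviations of samples sharing an array correlated at 0.271 to 0.52 on the other liver arrays, but at -0.29 and -0.198 on arrays 4 of Ito and Kupffer cells. The array was a block only in an alternative, with a consensus correlation of 0.0783 over all arrays, arrays 4 included. No fit had the array as block without arrays 4. The pairing on the endothelial arrays (0.34 to 0.52) was thus left out of the main test of ET against EC. The alternatives were the scanner's processed signal, normexp with quantile or loess and Aquantile normalization, scaling to the 75th percentile, a filter on dim probes, the array as block, only the groups compared, the methods' t-test, a stricter call (adjusted p under 0.001 and at least 4-fold), TP minus TM subtracted, the probe with the highest mean, and samples left out. The remaining steps ran in Python 3.11.15 (pandas 2.3.3, numpy 2.4.6), and matplotlib 3.10.9 drew the figures. The level of 1 marker gene is not reported here.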

Additional observations from a re-analysis of the deposited data

Results flagged for a closer look

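In 30 of 192 sets of 4 samples of a named gene, 1 sample lay apart from the other 3 by Dixon's test at the 95% level. Chance flags about 1 in 20. Levels are log2 intensities, with the range of the other 3 samples after each. ET replicate 1 stood apart for *Tnfrsf17* at 2.29 (others 1.92 to 1.97). ET replicate 2 stood apart for *Cd40* at 11.68 (others 12.36 to 12.46), *Tnfsf10* at 11.59 (others 12.49 to 12.51) and *Tnfsf15* at 9.0 (others 10.71 to 10.80). IC replicate 4 stood apart for *Ltb* at 9.5 (others 7.70 to 7.86), *Tnfrsf10b* at 6.82 (others 9.08 to 9.37), *Tnfrsf11a* at 11.80 (others 10.53 to 10.65), *Tnfrsf12a* at 13.44 (others 14.21 to 14.32), *Tnfsf15* at 7.95 (others 9.72 to 9.95), *Tnfsf18* at 9.56 (others 10.13 to 10.24) and *Tnfsf4* at 6.85 (others 8.32 to 8.39). IT replicate 2 stood apart for *Tnfsf10* at 9.46 (others 11.84 to 12.22). IT replicate 4 stood apart for *Tnfsf12* at 6.36 (others 6.68 to 6.73). KC replicate 3 stood apart for *Tnfrsf18* at 8.90 (others 7.80 to 7.95). KC replicate 4 stood apart for *Tnfsf9* at 7.76 (others 8.70 to 8.87). KT replicate 4 stood apart for *Cd40* at 14.83 (others 13.54 to 13.60), *Tnfrsf10b* at 8.96 (others 7.17 to 7.28), *Tnfrsf11b* at 13.32 (others 12.26 to 12.38), *Tnfrsf13c* at 4.14 (others 2.73 to 2.88), *Tnfrsf1b* at 11.84 (others 11.48 to 11.50), *Tnfsf15* at 10.49 (others 9.29 to 9.44), *Tnfsf18* at 9.92 (others 8.21 to 8.5) and *Tnfsf4* at 11.07 (others 9.61 to 9.71). TM replicate 1 stood apart for *Cd70* at 2.30 (others 2.25 to 2.26) and *Fasl* at 3.32 (others 2.01 to 2.03). TP replicate 1 stood apart for *Fasl* at 3.83 (others 2.06 to 2.09), *Tnfrsf19* at 3.56 (others 2.16 to 2.26) and *Tnfsf15* at 4.30 (others 2.08 to 2.30). TP replicate 3 stood apart for *Tnfrsf22* at 8.80 (others 8.32 to 8.40) and *Tnfsf10* at 5.02 (others 2.19 to 2.37). Replicate 4 of IC, IT, KC and KT are on the arrays that ran opposite to the rest.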

How the results depend on the processing

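No count of member probes reversed direction and no named gene changed sign with a call. Of 135 counts under other settings 120 stayed within 1.5 times the reported count, and of 172 with samples left out 155 did. These include comparisons with 0 member calls, where a count that stayed at 0 was taken as unchanged. Of 464 calls or non-calls of named genes under other settings 423 kept their side of the threshold, 17 were lost and 24 gained, and with samples left out 636 of 684 kept it. For ET against EC the count of called member probes rose from 0 to 3 with loess and Aquantile, 5 with the groups compared alone, 2 by the methods' t-test and 2 without arrays 4, and was 0 to 2 with samples left out. For IT against IC it was 7 and for KT against KC 5 without arrays 4 (chosen after seeing the data), and 0 to 7 and 0 to 4 with samples left out, the highest without replicate 4. TP against TM gave 0 to 5, the highest without TM replicate 4. For IC against EC the strict call gave 6 and samples left out gave 11 (without replicate 1) to 21. For IT against ET normexp with quantile gave 10, loess and Aquantile 10, the strict call 0, and samples left out 5 to 12 (without IT replicate 2). For KC against the other controls the strict call gave 3 and samples left out 14 to 21. For TM against KC the strict call gave 20 and samples left out 33 to 37, and TP against KT gave 34 to 37. The difference of change between Ito and endothelial cells gave 1 with loess and Aquantile, 7 without arrays 4 and 0 to 2 with samples left out. That between Kupffer and Ito cells gave 1 without arrays 4 and 0 to 0 with samples left out, and that between Kupffer and endothelial cells 0 to 0. The causes were not tested. Scaling to the 75th percentile moved the median of all probes to 0.29 in IC against EC, 0.50 in TM against KC and 0.61 in TP against KT, with member medians of -0.20, -1.36 and -1.46.

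With the array as replicate block (consensus correlation 0.0783), 0 member probes were called in each comparison of TME with control and in TP against TM, 19 in IC against EC, 6 in IT against ET, 19 against 20 in KC against the other controls, 38 in TM against KC and 36 in TP against KT. Signals near background limit what can be seen of the 15 genes not well above background in any tumor sample.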
